A study of Homo sapiens with 10 samples.

Results

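Pol II-only peaks are the peaks of RNA polymerase II (Pol II, the enzyme that makes messenger RNA and most small nuclear RNA) that overlapped no peak of KAP1, Larp7, Hexim1 or Cdk9 by even 1 bp. They were chosen by comparing the deposited Pol II peak list with the other 4 lists on chromosomes 1 to 22, and 7157 of 91692 Pol II peaks (7.81%, 95% interval 7.63 to 7.98) met the rule. The remaining 84535 Pol II peaks carried at least 1 other factor, and 49698 of them carried all 4. The count rests on how deep the other lists go, since 27454 Pol II peaks (29.9%) met the rule when peaks of the other lists needed a −log10 q of at least 5. The lists come from HCT116, a long-established line from a human colorectal carcinoma, grown without any treatment named in the labels and studied by chromatin immunoprecipitation and sequencing (ChIP-seq) with 1 library per antibody. Peak lists of 5 of the 10 libraries were used, with total Pol II taken by an antibody (N-20) that does not select a phosphorylated form. No antibody has a replicate library, so no p-value is given. Intervals are exact (Clopper-Pearson) 95% binomial intervals, which cover counting error only. Read depth is unknown, so the absence of a peak in a list means that none was called there, not that the factor was absent. The labels call the cells colonic endothelial. Pol II peaks stood at the promoters of 10 of 12 fixed epithelial marker genes (median fold 77.7 for these 10, range 3.97 to 120). The same held for 4 of 11 endothelial ones (CLDN5, ENG, ERG and ESAM, median fold 8.03, range 7.23 to 92.4), so the folds of these 2 lists overlapped. It also held for 3 of 9 fibroblast and 2 of 8 blood genes, counting promoters only.

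The 4 other proteins belong to the machinery that holds Pol II near gene starts and lets it go. Cdk9 is the kinase of P-TEFb, which releases paused Pol II into elongation. Hexim1 and Larp7 are proteins of the 7SK ribonucleoprotein, in which P-TEFb is kept inactive, and KAP1 (TRIM28) is a chromatin-bound co-regulator. Pol II itself travels the whole gene, slows past the polyadenylation site, and also transcribes compact genes without polyadenylation, such as those of the spliceosomal U1, U4 and U5 RNAs and of the histones.

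The Pol II-only peaks of highest fold included genes of U1 and U5, the RNAs that recognise 5′ splice sites and hold exon ends together in the spliceosome. The fold is the authors' deposited ratio of a peak over its background. Among U1 genes and variants overlapped by a Pol II peak, 5 of 8 had a Pol II-only peak and no other, and so did 3 of 5 U5 genes. The background is 11.2% (43 of 383 small RNA genes with a Pol II peak). Most of these 383 are microRNA genes, with 8 of 269, while small nucleolar RNA genes other than U3 had 15 of 52. The U1 and U5 counts are small. The sequences of these 5 U1 genes are given from GRCh37 on the strand of the gene to show that the peaks lie on different copies. Capitals mark bases 3 to 11, the stretch that pairs with 5′ splice sites.
RNVU1-14: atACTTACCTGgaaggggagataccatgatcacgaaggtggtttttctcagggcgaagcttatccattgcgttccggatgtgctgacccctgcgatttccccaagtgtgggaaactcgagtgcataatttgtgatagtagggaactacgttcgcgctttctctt
RNU1-2: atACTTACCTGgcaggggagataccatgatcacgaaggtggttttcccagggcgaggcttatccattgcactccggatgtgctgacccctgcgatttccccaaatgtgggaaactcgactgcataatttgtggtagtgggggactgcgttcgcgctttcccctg
RNVU1-13: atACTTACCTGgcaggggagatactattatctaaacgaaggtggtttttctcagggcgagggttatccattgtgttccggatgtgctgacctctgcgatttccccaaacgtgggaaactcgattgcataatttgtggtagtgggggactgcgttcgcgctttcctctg
RNVU1-15: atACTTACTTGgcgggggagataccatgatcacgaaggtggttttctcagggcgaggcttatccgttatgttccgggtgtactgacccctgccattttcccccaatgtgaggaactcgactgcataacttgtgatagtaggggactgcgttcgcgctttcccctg
RNVU1-19: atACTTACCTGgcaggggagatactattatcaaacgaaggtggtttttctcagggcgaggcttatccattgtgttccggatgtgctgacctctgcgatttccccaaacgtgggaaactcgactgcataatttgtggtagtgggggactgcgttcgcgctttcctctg
Aligned to RNVU1-14, the other U1 genes were 86.1% to 90.9% identical over the aligned columns. Identity among those other genes was not computed, and RNVU1-13 and RNVU1-19 as printed differ from each other at only a few bases. Within the capitals the only difference from RNVU1-14 was C9T in RNVU1-15, counted from 1 at the 5′ end of the gene. The 31 bases at the summit of each of these 5 peaks, and of the 3 U5 peaks, occur once in GRCh37. Whether reads from close copies were told apart along the rest of each peak was not tested.

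RNVU1-14 (chr1:148241465-148241628, plus strand) carried the highest fold of all Pol II-only peaks, 71.1, and its nearest other-factor peak was 1750 bp away. RNVU1-13 had a fold of 43.8 and a gap of 2492 bp, and RNU1-2, inside an intron of CROCC, had a fold of 31.3 and a gap of 1993 bp. RNVU1-19 and RNVU1-15 had lower folds, 21.6 and 20, but lay 113468 and 48122 bp from any other-factor peak. All 5 genes lie on chromosome 1. The other 3 U1 genes with Pol II had peaks of similar height that did meet another factor. RNU1-1 had a fold of 35.9 with Hexim1, RNVU1-6 had 51.2 with Larp7 and Hexim1, and RNVU1-18 had 33.5 with Larp7, Hexim1 and Cdk9. Folds of U1 genes with and without another factor therefore overlapped. RNU1-60P, a U1 pseudogene inside an intron of TEX14 on chromosome 17, had a Pol II-only peak of fold 58. It was 1 of 6 U1 pseudogenes with Pol II, and the peaks of the other 5 met another factor, among them RNU1-120P (57.9, with Hexim1) and RNU1-122P (30.9, with Hexim1). RNU1-122P is now named RNVU1-21, and counted as a variant it would add a U1 gene whose peak met another factor.

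For U5, RNU5F-1, in an intron of ARMH1, had a fold of 58.2 and a Hexim1 peak 241 bp away. RNU5D-1, on the same chromosome, had 22.3 and a gap of 297 bp, and RNU5B-1 on chromosome 15 had 19.4 and a gap of 1928 bp. RNU5E-1 and RNU5A-1 met other factors, with folds of 110 and 16.2. RNU4-1, a gene of the U4 RNA, had a Pol II-only peak of fold 17.1 that ended 59 bp short of the nearest other peak, while RNU4-2 had a fold of 43.6 with Hexim1. For the U3 small nucleolar RNA, which guides ribosomal RNA processing, SNORD3A (19.5) and SNORD3B-2 (26.3) were both Pol II-only. Only 8 of 269 microRNA genes with Pol II had Pol II-only peaks alone, below the 11.2% of all small RNA genes.

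Promoters that had Pol II and none of the 4 factors were rare, and histone H4 genes led them. A promoter is the annotated 5′ end of a protein-coding gene and 1 kb on each side. Of 13813 promoters with Pol II, 149 (1.08%, 0.913 to 1.27) had a Pol II-only peak and no other factor. The 60 bases before the 5′ end and the 5′ base itself are given, on the strand of the gene, for 3 of them that hold TATAAA (capitals), a core promoter element. Added to these are 121 bases around the summit of a Pol II-only peak in MALAT1, which hold TATAAA as well. That peak lies 1.250 to 1.697 kb past the annotated 5′ end of MALAT1 and is not one of these promoters. Pol II peaks nearer that end, of fold 43.5 and 39.3, met other factors.
H4C11: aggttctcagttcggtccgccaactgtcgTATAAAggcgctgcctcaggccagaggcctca
H4C4: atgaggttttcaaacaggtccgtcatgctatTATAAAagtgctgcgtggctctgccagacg
AREG: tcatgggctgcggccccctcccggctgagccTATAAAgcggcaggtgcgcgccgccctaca
MALAT1: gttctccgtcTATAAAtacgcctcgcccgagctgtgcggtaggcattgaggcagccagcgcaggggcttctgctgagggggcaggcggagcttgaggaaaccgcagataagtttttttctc
TATAAA was searched on the gene's strand only, in the 60 bases before the 5′ end and the 5′ base. It was there in 6 of the 149 promoters (4.03%, 1.49 to 8.56), namely AREG, H2AC19, H4C11, H4C4, NFKBIZ and UQCRC2. The share was 1.73% in promoters with Pol II and all 4 factors, 3.61% in all coding genes, and 8.95% in promoters with none of the 5. The interval for the 149 holds the share of all coding genes.

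Of 14 genes of histone H4, a core protein of the nucleosome made in S phase, 9 were overlapped by a Pol II peak and 5 of these only by Pol II-only peaks, the same 5 of 43 for all histone genes with Pol II. H4C5 had the highest fold, 38.7, over a peak of 1393 bp, followed by H4C12 (28.1), H4C2 (27.5, HIST1H4B in the annotation), H4C11 (27.4) and H4C4 (20.3). Their gaps to the nearest other factor ran from 863 bp for H4C12 to 4460 bp for H4C2. None of the 8 H3 and 2 H1 genes with Pol II had a Pol II-only peak. Of 12 H2A genes with Pol II, H2AC6 (21) and H2AC13 (4.18), and of 12 H2B genes, H2BC18 (13.7), had one beside a Pol II peak that met another factor. Outside the histones, the promoters without other factors of highest fold were those of EMP1, a membrane protein (26.7, gap 1949 bp), WDR75, a factor of ribosome assembly (26.7, gap 767 bp), TM9SF4 (24.5), AREG, a ligand of the EGF receptor (21.6), and CHCHD5 (19). AREG stood alone on the genome, with 33760 bp to the nearest other-factor peak and 45605 bp to the next Pol II peak. The peak of fold 33.5 that the rule assigns to the MRPS18B promoter has its summit at −641 bp from that gene's 5′ end, inside PPP1R10, so it cannot be assigned to either gene alone. All told, 517 coding promoters held a Pol II-only peak, and 62.7% of these (58.3 to 66.9) also held another Pol II peak with a factor.

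Pol II-only peaks were small, and close in size to Pol II peaks with 1 other factor. Their median width was 216 bp (quartiles 175 to 287), against 229 bp with 1 other factor and 397 bp with all 4. Over all peaks with another factor it was 297 bp, and 223 bp when these were weighted to the same GC content. Of the Pol II-only peaks, 19.5% were at the smallest width in the list, 168 bp. A wider peak has more bases with which to meet another peak, so width is tied to the rule. The median fold was 4.99 (quartiles 4.21 to 5.99), against 5.02 with 1 other factor. It was 6.62 over all peaks with another factor, and 5.17 for these at the same GC content. A −log10 q of 5 or more was held by 51.9%, against 53.6% with 1 other factor and 77.3% over all with another factor. The share of Pol II peaks that were Pol II-only fell from 15.9% in the narrowest decile (1 of 10 equal groups) to 0.491% in the widest, and from 16.9% in the decile of lowest fold to 0.109% in the highest. At the border of the rule, 180 Pol II-only peaks lay under 50 bp from another factor (median width 191 bp, fold 4.6) and 384 peaks outside the rule overlapped one by 1 to 50 bp at most (190 bp, 4.6). The gap to the nearest other-factor peak had a median of 972 bp (quartiles 428 to 2284), 50.9% lay within 1 kb of one, and 293 (4.09%) lay over 10 kb away. Hexim1, whose list is the longest, was the nearest for 60.6%, Larp7 for 26.4%, Cdk9 for 11.3% and KAP1 for 1.91%.

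The sequence under the peaks differed more than their size. In the 301 bases around the summit, GC content had a median of 52.2% (quartiles 49.2 to 55.1) in Pol II-only peaks, 52.8% in Pol II peaks with 1 other factor, 67.4% in those with all 4, and 64.8% over all peaks with another factor. Of the Pol II-only peaks, 93.7% lay in the 3 lowest deciles of GC content, which hold 24.6% of the others. A Pol II peak was Pol II-only in 33.7% of cases in the lowest decile, in 14.7% in the third and in 0.6% in the fifth. The order held at every kind of place, with medians of 55.8% against 70.1% at coding promoters and 51.5% against 63.1% in coding introns. The peaks of the Hexim1, Larp7 and Cdk9 lists were not GC-rich themselves, with medians of 51.8%, 53.2% and 54.8% around their middles, while Pol II (64.1%) and KAP1 (63.8%) were. The plot of shares by decile shows this fall beside those for width and fold.

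**Figure D1:**
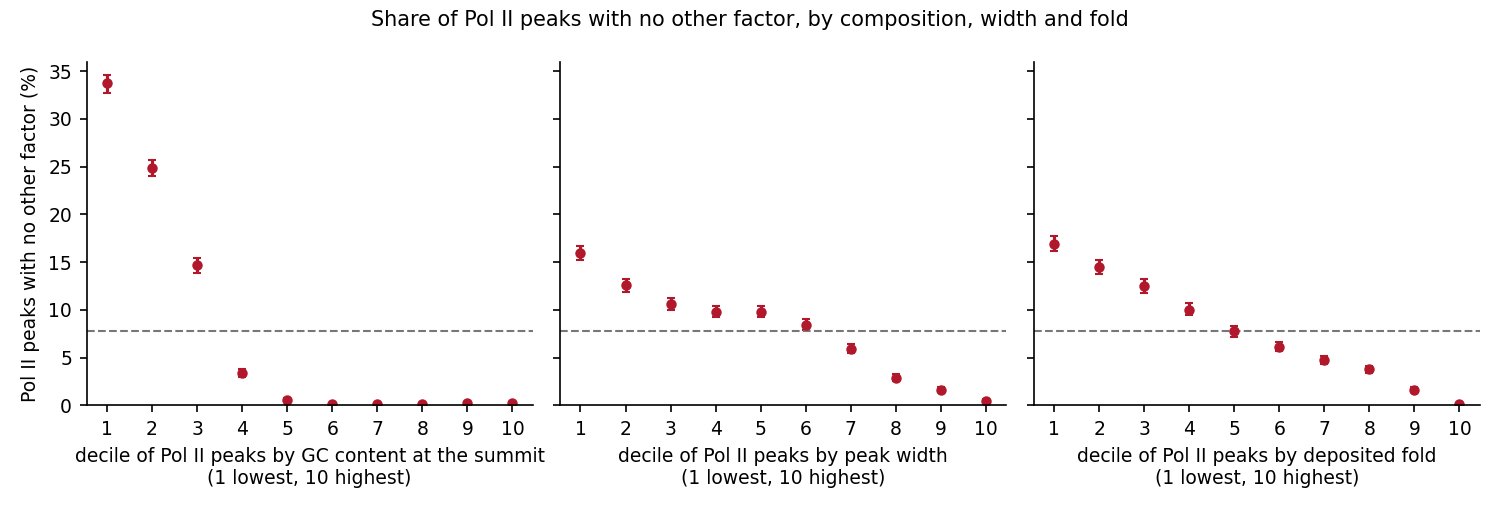
Percent of Pol II peaks that are Pol II-only (vertical axis, points with 95% binomial intervals) in deciles (10 equal groups) of all Pol II peaks ordered by GC content, width or deposited fold (horizontal axes, 1 lowest to 10 highest); the dashed line is the share over all peaks, 7.81%. The share falls from 33.7% to under 1% by the fifth decile of GC content, and from 15.9% to 0.491% over the deciles of width.

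Composition also went with repeats. The 31 bases at the summit occur more than once in GRCh37 for 40.3% of Pol II-only peaks (39.1 to 41.4), 46.1% of those with 1 other factor, 12.6% of all with another factor and 3.46% of those with all 4. Weighted to the GC deciles of the Pol II-only peaks, the other Pol II peaks gave 45.1%, so the repeat content was not higher than at the same GC content. At least 1000 copies were found for 7.89% of Pol II-only peaks. The share found more than once was highest in introns (46.8%) and lowest at promoters (12.4%), and 10 of the 51 peaks with a fold of 20 or more were of this kind. Short motifs differed as well. Searched on both strands in the 301 bases, AATAAA, the letters of the polyadenylation signal, was in 19.6% of Pol II-only, 7.3% of other and 8.26% of all peaks. Among Pol II-only peaks it was not more frequent at 3′ ends (19%) than in introns (21.1%) or between genes (20.4%). TATAAA was in 9.61% of Pol II-only, 3.03% of other and 3.54% of all peaks, and the AP-1 letters TGANTCA in 8.26%, 4.07% and 4.39%. The GC box GGGCGG went the other way, with 14.8%, 44.6% and 42.2%. Matches of AATAAA and TATAAA can overlap each other, and such overlaps were not counted. These shares were not weighted for GC content, and a match of letters is not a bound site.

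By place, Pol II-only peaks were found less at gene starts and more at gene ends than the other Pol II peaks, and at the same GC content only the second of these differences kept its direction. A peak's middle decided its place, in the order coding promoter, within 1 kb of a coding 3′ end, coding exon, coding intron, noncoding gene and between genes. Introns held 3415 (47.7%, 46.6 to 48.9, against 38.1% of other Pol II peaks), the space between genes 1152 (16.1% against 14.2%), 3′ ends 907 (12.7%, 11.9 to 13.5, against 5.69%), exons 734 (10.3% against 18.1%), noncoding genes 505 (7.06% against 6.53%) and promoters 444 (6.2%, 5.66 to 6.79, against 17.4%). Pol II peaks with 1 other factor had 51.4% in introns, 8.79% at 3′ ends, 8.87% in exons and 7.44% at promoters. Those with Larp7 alone had 11.6% at 3′ ends and 3.1% at promoters, and those with Hexim1 alone 7.99% and 9.07%. Of the exon peaks, 21.5% had their middle in coding sequence, against 61.6% of other Pol II exon peaks. When the other peaks were weighted to the same GC deciles, their promoter share was 5.42%, their exon share 9.5%, their share between genes 16.5% and their intron share 55%. With this weighting the order turned at all 4 places. Pol II-only peaks stood slightly above the others at promoters and in exons, and below them in introns and between genes. Between genes the weighted value lay inside the interval of the Pol II-only peaks (15.3 to 17). Among Pol II peaks of the 3 lowest deciles of GC content, the order turned in introns only (48.7% against 53.8%). There, promoters had 5.63% against 5.96%, exons 9.88% against 10.3% and the space between genes 16.3% against 16.2%. With the ends of any coding transcript in place of those of the gene, promoters held 18.6% and exons 2.81% of the Pol II-only peaks. The 3′ end kept a difference, with 7.73% after weighting against 12.7%. Noncoding genes kept their order too, with 5.82% after weighting against 7.06% (6.47 to 7.67), while the unweighted 6.53% lay inside that interval.

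**Figure D2:**
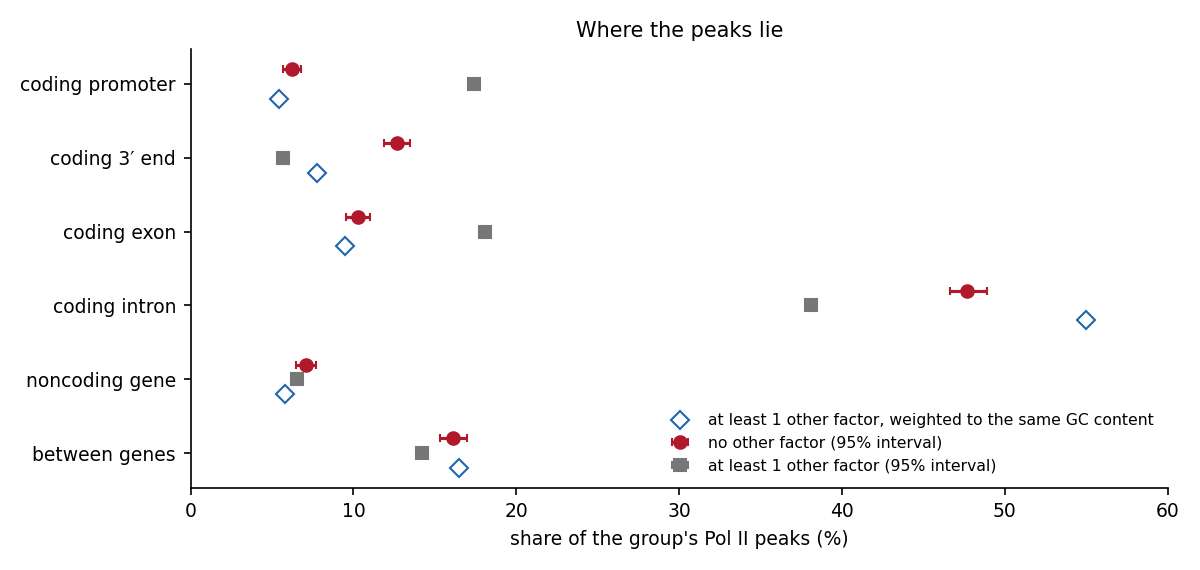
Share of each group's peaks (horizontal axis, percent) by kind of place, for Pol II-only peaks (red circles), Pol II peaks with another factor (grey squares) and the latter weighted to the GC deciles of the Pol II-only peaks (blue diamonds); bars are 95% binomial intervals. The diamonds move next to the circles at promoters (5.42% and 6.2%) but not at 3′ ends (7.73% and 12.7%).

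Along genes, the share of Pol II peaks that were Pol II-only was lowest just past the 5′ end, 2.4% (2.12 to 2.71) in the first kb, and stood between 10.1% and 12% from 3 to 10 kb. Around the 3′ end it was 7.69% at 3 to 2 kb before the end, 10.7% (9.61 to 11.8) in the last kb, 18% (16.7 to 19.3) in the first kb past it, 15% in the next, 12.4%, 10.8% and 9.31% in the ones after, and 7.34% at 9 to 10 kb. All Pol II peaks of the same GC content gave 1.75% in the first kb of genes, 7.29% in the last kb, 12.8% in the first kb past the end and 13.2% in the next. Intervals lay wholly above the value at the same GC content in the 4 bins from 2 kb before to 2 kb past the 3′ end, and past the 5′ end in the bins 0 to 1 kb, 4 to 5 kb (11.6% against 9.98%) and 7 to 8 kb (12% against 9.91%). In all, 1749 Pol II-only peaks (24.4%, 23.4 to 25.5) lay 0 to 5 kb past a coding 3′ end, against 12.8% of the others and 20.8% of the others at the same GC content.

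**Figure D3:**
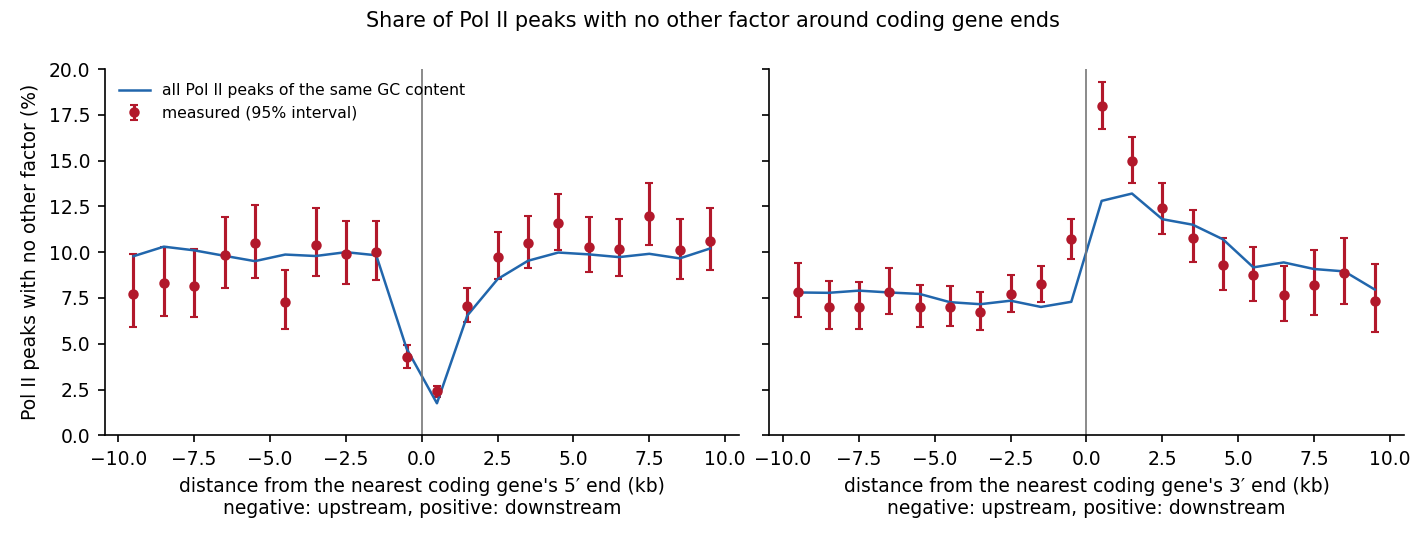
Percent of Pol II peaks that are Pol II-only (vertical axis) in bins of 1 kb by distance of the peak's middle from the nearest coding 5′ end (left) or 3′ end (right); points carry 95% binomial intervals and the blue line is the share among all Pol II peaks of the same GC content as those in the bin. The points are lowest in the first kb past 5′ ends (2.4% against 1.75% on the line) and rise above the line next to 3′ ends, to 18% against 12.8% in the first kb.

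The 907 peaks at 3′ ends belonged to 874 genes, and 65.8% had their middle past the annotated end. The promoters of 76.2% of these genes held Pol II and all 4 factors, near the 74.3% of coding genes with at least 1 Pol II peak in the gene. EIF1, which helps select the start codon, had the highest fold, 29.5, with a summit at −649 bp from its 3′ end, whose 31 bases have 37 copies in the genome. RPL10A, a protein of the large ribosomal subunit, had 28 with the summit 835 bp past the end, and ACTB, cytoplasmic actin, had 27.5 over the widest Pol II-only peak of all, 2737 bp. These were followed by TRIB1 (26.1), a pseudokinase, HNRNPA1 (24.8), an RNA-binding splicing regulator, ZNF79 (23.7) and HMGB2 (22.2), a DNA-bending chromatin protein. The ZNF79 peak lies between that gene and RPL12, so it cannot be assigned to ZNF79 alone. The last of the 8, with 22.1, lies between SPSB2 and TPI1, a glycolytic enzyme, whose ends converge there, so either gene may own it. FOS, an immediate early transcription factor, had a peak of 16.4 whose summit was 620 bp past its end.

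Pol II-only peaks came in groups. The nearest Pol II peak was itself Pol II-only for 31.4% of them (30.3 to 32.5), against 5.69% of other Pol II peaks, 12.5% of the others at the same GC content beside a share of 7.81% of Pol II peaks in all. With all Pol II peaks within 1 kb merged it was 19.8%. Runs of 2 or more Pol II-only peaks with no other Pol II peak between them numbered 1231 and held 3171 peaks (44.3%), and 408 runs of 3 or more held 1525 (21.3%). Neighbouring peaks share a gene and its local signal, so they are not independent of each other. Pol II-only peaks did not lie closer to other Pol II peaks in general, since 48.7% had one within 1 kb against 57.9% of the others.

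The longest run, of 12 peaks over 7.38 kb, lay in MALAT1, an abundant nuclear noncoding RNA. In gene order the folds were 64, 5.31, 3.99, 16.6, 4.04, 5.99, 4.21, 8.95, 4.21, 7.12, 13.7 and 4.6. The first was the highest, and the others ranged from below the median of Pol II-only peaks (4.99) to above their upper quartile (5.99). Before and after the run, Pol II peaks of fold 43.5, 39.3 and 60.2 met other factors. The TALAM1 transcript overlaps MALAT1 on the other strand and cannot be told apart here. ERRFI1, a feedback inhibitor of the EGF receptor, had a run of 9 from 3.21 to 15.3 kb past its 5′ end, with folds of 5.41, 7.91, 25.8, 5.75, 5.24, 3.74, 5.82, 4.18 and 11.7, behind a Pol II peak of fold 140 at its promoter, where all 4 factors had peaks. DCBLD2, a transmembrane receptor-like protein, also had a run of 9, with folds from 4.53 to 23.5, and MIR31HG, the host transcript of miR-31, a run of 10 with folds from 4.58 to 12.7. The run of 11 at the converging ends of HNRNPAB and PHYKPL stayed between 2.91 and 9.61, and that of 9 in MTAP between 3.89 and 10.9.

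**Figure D4:**
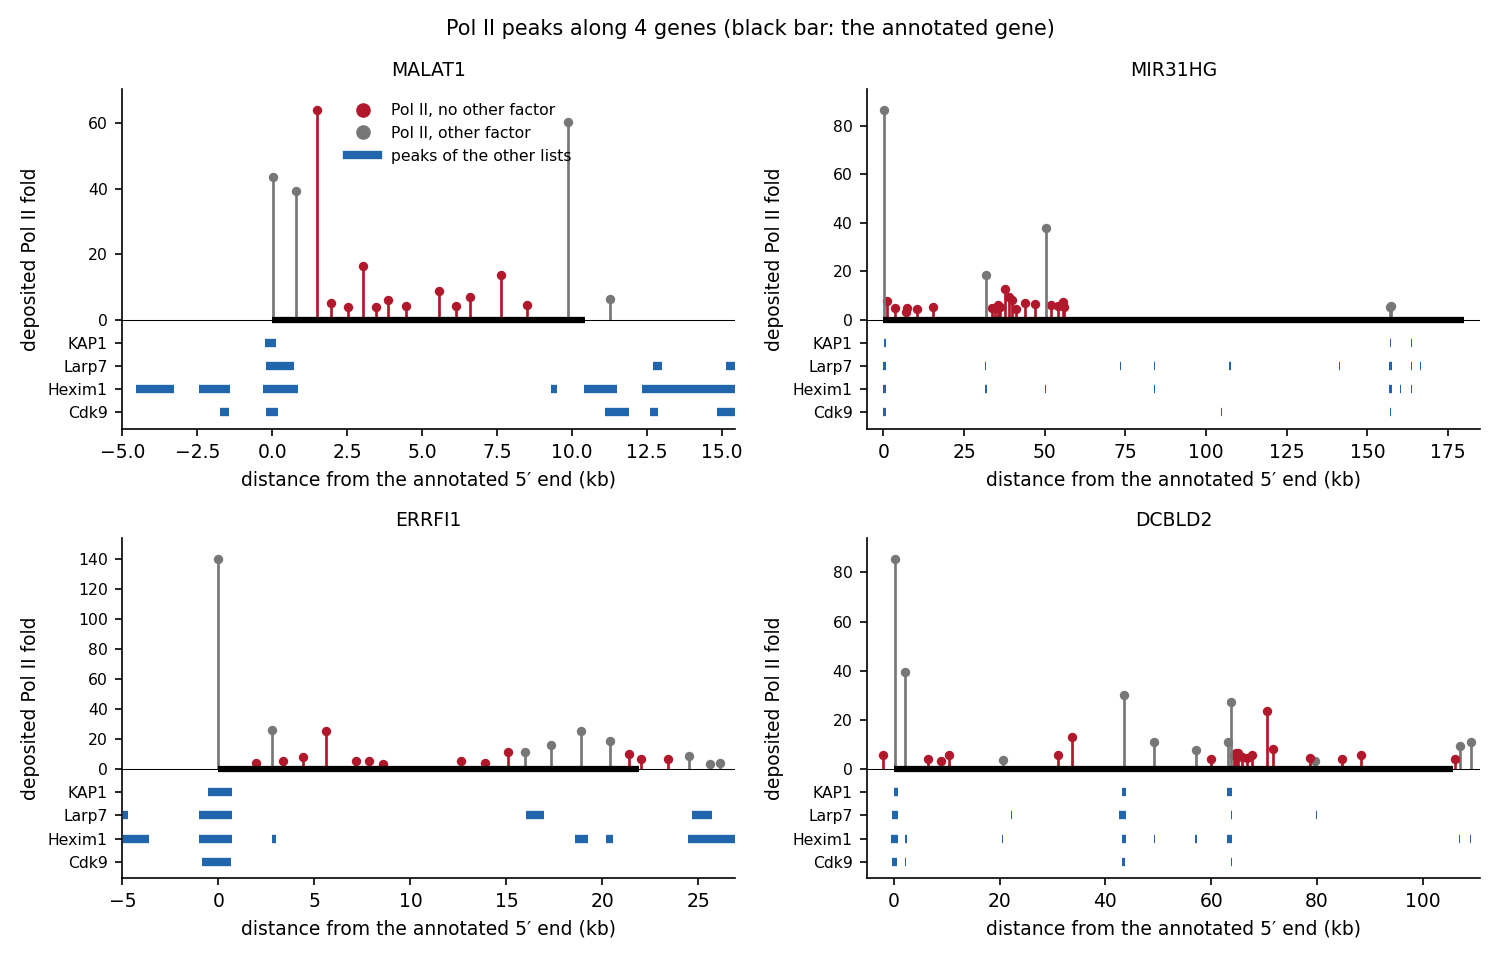
Pol II peaks along MALAT1, MIR31HG, ERRFI1 and DCBLD2 by distance from the annotated 5′ end (horizontal axis, kb), with the deposited fold as height (vertical axis); red peaks have no other factor, grey ones have at least 1, and blue bars are the peaks of the other 4 lists. All 4 other lists have a peak at each 5′ end, where Pol II reaches 140 in ERRFI1, and the red peaks lie in stretches between blue bars.

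In 3241 of 19229 coding genes (16.9%) a Pol II-only peak had its middle in the gene. DCBLD2 and FAT1, an atypical cadherin, had 17 each, of 26 and 41 Pol II peaks. HMGA2, a chromatin-bending protein, and GPRC5A, an orphan receptor, had 16 each, of 34 and 22. AKAP12, a kinase scaffold, PALLD, an actin-binding protein, and MYOF, a membrane-repair protein, had 15 each, DLGAP1 had 14 and EZR, which ties actin to the membrane, had 13. Median folds per gene ran from 4.6 in MYOF to 6.15 in EZR, 6.43 in GPRC5A and 7.04 in DLGAP1, the last 3 above the upper quartile of all Pol II-only peaks (5.99), and most lay in introns (11 of 16 in GPRC5A, 15 of 15 in MYOF). The 13 counted for HBG2, for HBE1 and for ENSG00000239920 come from annotated spans that overlap each other and cannot be told apart. The promoter held Pol II and all 4 factors in 71.3% of genes with a Pol II-only peak and in 75.2% of genes with Pol II peaks of which none was Pol II-only. By number of Pol II peaks in the gene, it was 24.4% against 69.9% with 1, a value tied to the rule. With 2 to 3 it was 68.8% against 74.6%, and with 4 to 7 73.3% against 79.7%. With 8 to 15 it was 77.3% against 84%, and with 16 or more 80.7% against 89.8%. All these shares are scored from the same 4 lists that the rule uses, so none of them is independent of it. A Pol II-only peak was found in 3.8% of genes with 1 Pol II peak, 18.2% of those with 2 to 3, 32.9% with 4 to 7, 45.1% with 8 to 15 and 42.7% with 16 or more. Among noncoding genes LINC-PINT had the most, 34, then LINC00513, which lies within the span of LINC-PINT on the other strand (21), MIR31HG (20), MALAT1 (12), TALAM1 (11), LINC02832 and MIR100HG (9 each), and NEAT1, the scaffold of paraspeckles, and ZFAS1, a host of small nucleolar RNAs (8 each).

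Host genes of small nucleolar RNAs and ribosomal protein genes had the largest shares of Pol II-only peaks among the gene lists. Counting peaks in the gene or within 1 kb, 23.4% of coding genes with a Pol II peak had at least 1 Pol II-only peak. Among cytosolic ribosomal protein genes it was 62 of 81 (76.5%, 65.8 to 85.2), and 160 of their 459 Pol II peaks (34.9%) were Pol II-only, against 20.3% of all Pol II peaks at the same GC content. RPL4 had the highest fold (37, with Hexim1 226 bp away), then RPL10A (28), RPL37 (26.5, where the summit sequence has 5385 copies) and RPL22L1 (21.2). Small nucleolar RNA host genes had 14 of 17 genes and 36.6% of 123 peaks (20.5% at the same GC content), led by ZFAS1 and EPB41L4A-AS1 (12.5 each). For splicing factors it was 16 of 26 genes and 29.4% of 187 peaks (20% at the same GC content), led by HNRNPA1 (24.8) and TRA2B (15.3). Translation factors had 13 of 15 genes and 25.6% of 133 peaks (17.9%), led by EEF1A1 (20.5) and EIF4A1 (14.1). Small nuclear RNA genes had 29.7% of 37 peaks (19.3%), long noncoding RNA genes 26.2% of 130 (15.5%), led by MALAT1 (64) and NEAT1 (13), and histone genes 24.2% of 62 (14.7%). The listed genes differ in length and in number of Pol II peaks, which was not adjusted for in these counts of genes.

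Other lists held smaller shares. Immediate early genes had 14 of 33 genes and 23.1% of peaks (12.1% at the same GC content), with ZFP36L1 (18.9), an mRNA-decay factor, and FOS (16.4) at the top. Glycolysis had 9 of 16 genes and 22.5% (12%), led by TPI1 (22.1, the peak that SPSB2 may own) and ENO1 (16.8, with 10 Pol II-only peaks in the gene). For cytoskeleton and adhesion it was 15 of 20 genes and 19.1% (13%), for heat shock genes 12 of 19 and 21.8% (17%), led by DNAJB1 (13.6), and for p53 targets 11 of 22 and 21.5% (15.8%), led by FDXR (13.3). ATF4 targets and aminoacyl-tRNA synthetases had 19 of 26 genes and 21.1% (15.3%), with PHGDH (9.61) highest. Of the genes of the studied factors and their partners, 8 of 15 had a Pol II-only peak and 18.1% of peaks were such (12%), among them CBX5 (23.8), TRIM28, which encodes KAP1 (6.33), SETDB1 (5.85) and MEPCE (5.59). The CBX5 peak lies close to HNRNPA1, so it cannot be assigned to CBX5 alone.

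Some lists stood close to or below the level of their GC content. Cholesterol and fatty acid synthesis genes had 14.2% against 14%. Cyclin and cell cycle genes had 12.4% against 11.6%, with MCM7 (7.75), a helicase subunit, highest, and epithelial junction and keratin genes 9.44% against 8.49%, with KRT8 (15.9). Wnt targets had 11.2% against 12.8%, with TCF7L2 (8.09). The zinc finger (ZNF) genes, whose proteins often recruit KAP1, had 7.63% of 1442 peaks against 8.34%, with ZNF79 (23.7, the peak between it and RPL12). None of the 34 Pol II peaks at endothelial, 21 at fibroblast and 11 at blood marker genes was Pol II-only, so 0 of 8 endothelial genes with Pol II had one, with an exact interval up to 36.9%. All Pol II peaks at the same GC content gave 5.21%, 1.11% and 2.35% for these lists, so few or no such peaks would be counted at those shares either. Epithelial markers stood above the level of their GC content, with 13 of 64 peaks (20.3% against 14.5%), led by KRT8 and KRT18 (10.8). The plot of gene lists sets these shares side by side.

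**Figure D5:**
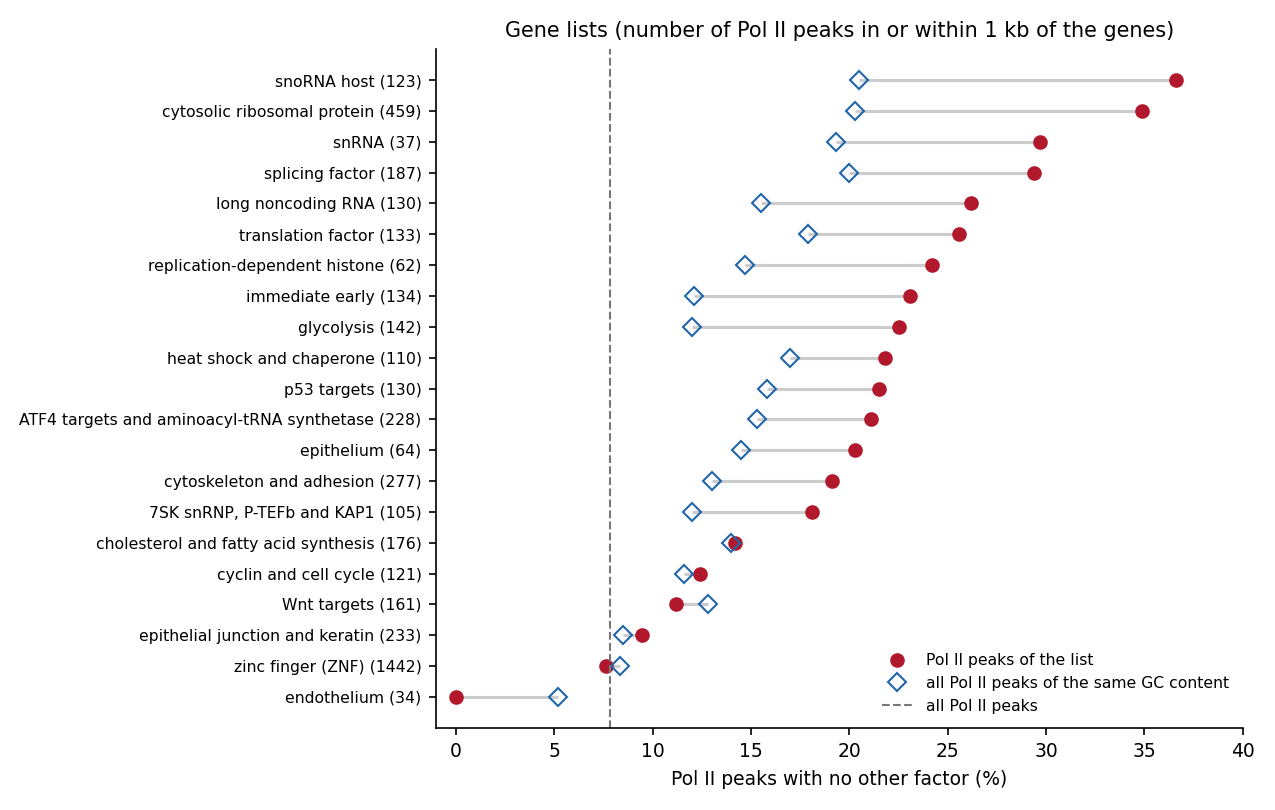
Percent of Pol II peaks that are Pol II-only (horizontal axis) in each gene list with at least 30 Pol II peaks in or within 1 kb of its genes (number in brackets); red circles are the list, blue diamonds all Pol II peaks of the same GC content, and the dashed line all Pol II peaks, 7.81%. Host genes of small nucleolar RNAs (36.6%) and ribosomal protein genes (34.9%) lie farthest right, and zinc finger genes (7.63%) at the line.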

How the data were processed

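Binding of Pol II (total), Cdk9, Hexim1, Larp7 and KAP1 was mapped by ChIP-seq in HCT116 cells, with 1 library each. The tools named per the submitters' processing notes are Bowtie 1.1 and MACS2, with hg19 as the build. Calling settings, control library and depth were not given in the sources used here. The files have no header line, so columns were read by the standard MACS2 peak layout: the deposited fold is a ratio over background, the deposited p and q values are written as −log10, and the deposited score, a whole number made from q, was not used. The position of the summit inside each Pol II peak is the authors' own.

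A Pol II peak on chromosomes 1 to 22 was a member if it overlapped no peak of the other 4 lists by 1 bp or more. The members, gene lists and named genes were chosen with earlier results of these data known. Genes came from GENCODE release 44 placed on GRCh37, and sequence from GRCh37. GC content and motifs were read in 301 bases around the summit, and copies of the 31 summit bases were counted on both strands of the genome. Values at the same GC content weight the deciles of GC content, and were chosen after seeing the data, as was the count of copies. Genes named are the highest by fold or by number of members in each class. Intervals are exact 95% binomial ones, and no p-value was computed, since there are no replicates. The scripts were tested on simulated data. Python 3.11.15, numpy 2.4.6, pandas 2.3.3, scipy 1.17.1, biopython 1.88 and matplotlib 3.10.9 were used. Libraries of phosphorylated Pol II, histone marks and input were not used here. Some results are not reported here.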

Additional observations from a re-analysis of the deposited data

How the results depend on the processing

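No paired analysis was possible because each antibody has 1 library. In 14 alternatives, 12 of them planned, 12 results gave 145 values, of which 72 moved by less than their interval (10% for medians, counts within 1.5 times) and 73 moved. The order of Pol II-only against other Pol II peaks stayed at promoters, 3′ ends and exons in 14 of 14 alternatives, and for width, fold and the nearest neighbour in 10 of 10. Weighting the other peaks to the same GC content, which is not among these alternatives, turned it at promoters and exons. It turned for introns in the 3 lowest deciles of GC content, for noncoding genes with 20000 peaks per other list and with merged peaks, and between genes with a window of 2 kb. Depth is unknown, and whether deeper lists would leave fewer Pol II-only peaks was not tested.

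With Pol II peaks of −log10 q of at least 5, 3712 peaks (5.37%) in 1801 genes remained, at promoters 8.43%, 3′ ends 15%, exons 11.1%, introns 40%, noncoding genes 8.24% and between genes 17.2%, with width 258 bp, fold 5.92 and 28.9% beside another. With that limit on the other lists, there were 27454 (29.9%) in 7144 genes, at promoters 4.84%, 3′ ends 8.77%, exons 12% and introns 51.6%, with 69.5% beside another. With the 20000 strongest peaks of each other list, there were 43554 (47.5%) in 8932 genes, at 3′ ends 7.92%, exons 15.5% and noncoding genes 6.37%, with 76.4% beside another. Overlap of 50% of the shorter peak gave 9.31%, and a summit outside the other peaks 9.63%, with 33.6% beside another. With no other factor within 1 kb, there were 3515 (3.83%) in 1767 genes, at promoters 4.13%, 3′ ends 11.6%, noncoding genes 9.08% and between genes 17.0%, with 34.2% beside another. With Pol II peaks within 1 kb merged, there were 3990 (7.18%), at promoters 3.93%, 3′ ends 8.87%, exons 8.62%, introns 53.8% and between genes 17.3%, with 19.8% beside another. Chromosome X brought the share to 7.99%. A window of 500 bp gave promoters 4.11%, 3′ ends 5.98%, exons 12.9%, introns 49.8% and between genes 19.5%. A window of 2 kb gave promoters 11.1%, 3′ ends 20.7%, exons 6.87%, introns 43.1%, noncoding genes 6.19% and between genes 12.1%. Ends of any coding transcript gave promoters 18.6%, 3′ ends 20%, exons 2.81% and introns 35.4%. Among Pol II peaks whose 31 summit bases occur once, an alternative chosen after seeing the data, there were 4276 (5.47%), at promoters 9.1%, 3′ ends 14.4%, exons 12.4%, introns 42.5% and between genes 14.5%, with 29.3% beside another. In the 3 lowest deciles of GC content, also chosen after seeing the data, the share was 24.4%. There 5.63% lay at promoters (5.96% of the other Pol II peaks) and 39.7% beside another (19.8%). Why the values moved was not tested.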

Other observations

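The share of Pol II peaks that were Pol II-only differed between chromosomes, from 3.31% (2.47 to 4.33) on chromosome 21 and 4.65% on chromosome 22 to 11.9% on chromosome 6 and 12% (11 to 13) on chromosome 12. Chromosome 19 had 5.46%.

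Among the Pol II-only peaks farthest from any other-factor peak were one near the pseudogene BMS1P1 (184789 bp, fold 5.8), one at LINC01145 (179653 bp, fold 11.6) and one at GATSL2 (177501 bp, fold 13.7). Of the 16 peaks over 50 kb away, 9 had summit bases found more than once in the genome. The peak of fold 42.2 at RRN3P1 on chromosome 16, with 85429 bp to the nearest other factor, has 3 copies of its summit bases. In PTPRS, a receptor phosphatase, an intron peak of fold 50.7 lay 184 bp from a Hexim1 peak and 282 bp from a KAP1 peak, and in SDCBP2 an intron peak of fold 41.3 lay 4015 bp from any other factor, both with summit bases found once.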
